A study of Mus musculus with 10 samples.

Results

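Histone acyltransferases (writers), deacylases (erasers) and the proteins that bind acylated lysines (readers) were examined in livers of fed and starved mice. The genes were chosen by symbol as 35 named members of these families, and all 35 were found among the 23420 gene rows of the deposited counts. All 35 also had enough reads to be tested, as did 12796 genes in all. Total-RNA libraries came from livers of male C57BL/6 mice aged 4 months. Of these, 5 mice were fed standard chow (fed, replicates 1 to 5) and 5 had no food but free access to water for 48 hours (starved, replicates 1 to 5), and the labels name no other treatment or allele. The series concerns the β-hydroxybutyrylation of histone lysines, a mark derived from a ketone body that the liver makes during starvation.

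Histone lysines carry acetyl groups and longer acyl groups, among them crotonyl and β-hydroxybutyryl. The paralogues p300 and CBP accept many acyl-CoA donors, while the GNAT and MYST families are best known for acetylation. The zinc-dependent deacetylases (HDACs) and the NAD-dependent sirtuins remove these groups, and bromodomains, YEATS domains and double PHD fingers bind them. Enzyme RNA is only 1 layer of this system, since acyl-CoA supply, NAD and the transport of class IIa deacetylases in and out of the nucleus also set its activity.

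Most of these genes were not called. With edgeR's quasi-likelihood test and Benjamini-Hochberg adjustment over all tested genes (called at an adjusted p under 0.05), 3 of 35 rose in starved liver, 6 fell and 26 were not called. The called share was 25.7%, against 38.6% of all tested genes. The share that rose was 8.57% against 18.6%, and the share that fell was 17.1% against 20%. The acyltransferases Kat2a, Kat5 and Kat8 rose, and the acyltransferase Kat2b, the erasers Hdac9, Hdac11 and Sirt7 and the readers Yeats2 and Mllt3 fell. Among the 18 erasers 0 were called higher and 3 lower (16.7%), and among the 7 readers 0 higher and 2 lower (28.6%). Of all tested genes 18.6% were called higher and 20% lower, and these groups are small. The eraser Sirt1 had the largest positive log2 fold change of the 35 genes (0.63) but missed the threshold (adjusted p = 0.0639, edgeR). At least 2-fold changes were found for 3 members (8.57%, against 13.2% of all tested genes), and all of these were falls, in Hdac9, Hdac11 and Mllt3. Over the 35 genes the median log2 fold change was -0.014, against 0.0035 for all tested genes, and the median size of the change regardless of sign was 0.25 against 0.37. The fed and starved libraries did not overlap in 8 members (22.9%), against 29.9% of all tested genes.

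**Figure D1:**
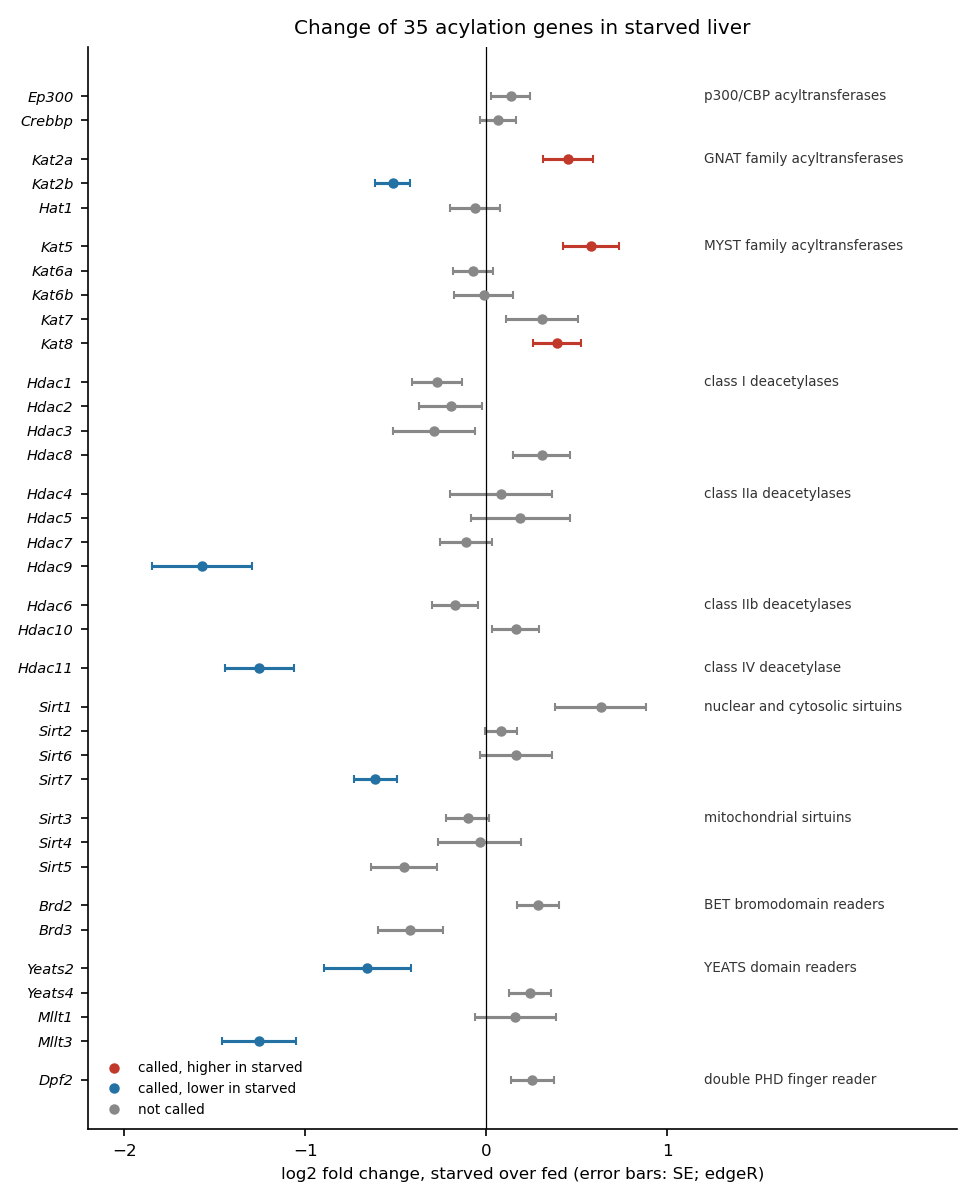
Log2 fold change (starved over fed, x axis) of each of the 35 genes with its standard error, grouped by family. The 3 called rises are red, the 6 called falls are blue and the 26 genes without a call are grey, with Hdac9, Hdac11 and Mllt3 furthest to the left.

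Reads assigned to genes came to 23.0 to 29.9 M per fed and 18.2 to 28.1 M per starved library. Levels below are CPM, depth-scaled counts adjusted by edgeR's TMM factors. Starved library 2 stood apart, with a mean correlation of 0.947 with the other starved libraries on the log scale, while the other starved libraries had 0.972 to 0.973 and the fed ones 0.989 to 0.991. Starved libraries 2 and 4 both lay outside the range of the other 3 starved libraries in a large share of genes (both above in 24.7%, both below in 25.5% of tested genes), so results that rest on them are given with and without them. Among marker genes of hepatocytes 4 of 8 tested rose and 1 fell, and Alb averaged 82740 ± 14124 CPM (fed) and 94215 ± 20087 CPM (starved, SD, n = 5) without a call. Of the Kupffer cell and macrophage markers 8 of 9 fell, and their summed level was 412 to 672 CPM in fed and 169.6 to 343 CPM in starved libraries. Endothelial markers (1 of 9 higher, 4 lower) summed to 287 to 333 and 231 to 293 CPM. The calls were 1 higher and 2 lower of 9 for stellate cell, 1 lower of 5 for cholangiocyte, 0 of 2 for T and NK cell and 1 lower of 4 for B cell markers. For neutrophil markers 3 of 4 rose, and for erythroid markers all 3 tested fell. In every library 2 globin genes had no counted read. Reads aligned to several places were not counted, so these zeros may not reflect the level of the globin genes, which was not tested. In whole liver, fewer cells of a type and less RNA per cell cannot be told apart.

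Per kilobase of exon, Kat2b was the most abundant of the 35 genes in both conditions, at 34.6 ± 1.57 TMM-scaled CPM per kb in fed and 24.2 ± 2.35 in starved liver. Hdac11 was next in fed liver (20.7 ± 2.04 CPM per kb), followed by Sirt3 (15.4 ± 2.26) and Yeats4 (11.7 ± 1.61). In starved liver Hdac11 had rank 5, at 8.69 ± 2.56 CPM per kb, behind Kat2b, Sirt3, Yeats4 and Brd2. The p300 and CBP genes were far lower, at 1.84 ± 0.155 and 2.04 ± 0.139 CPM per kb in fed liver, and their ranges over fed livers overlapped. Among class I deacetylases the level per kb was highest for Hdac3 (7.37 ± 0.307), followed by Hdac2 (4.30 ± 0.403) and Hdac1 (3.47 ± 0.256), and lowest for Hdac8 (0.526 ± 0.0775). The class IIa genes spanned a wide range, with Hdac5 at 3.35 ± 0.316, Hdac4 at 0.392 ± 0.0341, Hdac7 at 0.367 ± 0.0337 and Hdac9 at 0.0791 ± 0.0116 CPM per kb. Hdac9 was the lowest of all 35 genes in both conditions. Exon length is the union over all annotated transcripts, so genes with long alternative exons that liver does not use are understated.

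**Figure D2:**
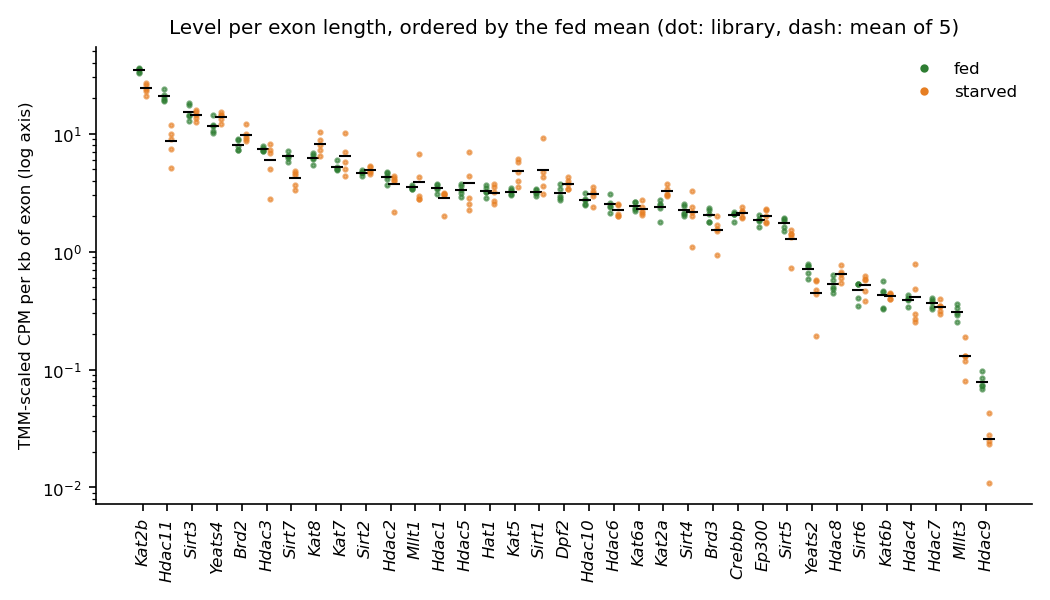
Level of each gene per kilobase of exon (TMM-scaled CPM per kb, log axis), with 1 dot per library and a dash at the mean of 5, ordered by the fed mean. Kat2b leads at 34.6 in fed liver and Hdac9 is last at 0.0791.

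Neither Ep300 nor Crebbp, the acyltransferases with the broadest choice of acyl-CoA donors, was called. Ep300 had 22.9, 26.7, 25.7, 26.7 and 28.98 CPM in fed and 28.6, 31.9, 24.98, 32.7 and 25.6 CPM in starved libraries 1 to 5 (log2 fold change 0.13 ± 0.11 SE, adjusted p = 0.35, edgeR's quasi-likelihood test). Crebbp had 24.3, 28.3, 28.3, 29.1 and 28.2 CPM in fed and 26.7, 29.6, 25.9, 32.4 and 29.9 CPM in starved libraries (0.064 ± 0.10, adjusted p = 0.628, edgeR). The groups overlapped for both genes, and the level within a library of Ep300 relative to Crebbp differed by 0.067 on the log2 scale (exact two-sided permutation p = 0.341, adjusted p = 0.434 over 14 pairs).

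The GNAT paralogues Kat2a (GCN5) and Kat2b (PCAF), alternative catalytic subunits of the SAGA and ATAC coactivator complexes, moved in opposite directions. Kat2a (chromosome 11, 100704746 to 100712465, minus strand, mm10) had 6.15, 8.78, 9.56, 8.19 and 8.57 CPM in fed and 10.4, 13.04, 10.5, 11.7 and 10.8 CPM in starved libraries 1 to 5. Kat2b (chromosome 17, 53566861 to 53672720, plus strand) had 176, 173, 159, 162 and 172 CPM in fed and 117, 102, 125, 112 and 132 CPM in starved libraries. All 5 starved livers were above all fed livers for Kat2a and below all of them for Kat2b. Kat2a rose by a log2 fold change of 0.45 ± 0.14 SE (adjusted p = 0.0214) and Kat2b fell (-0.52 ± 0.10, adjusted p = 0.00174, edgeR's quasi-likelihood test). The call of Kat2a was lost when libraries were scaled by their totals alone, a scaling that shifts the median of all genes by -0.15. A ratio within a library needs no scaling, and the log2 ratio of Kat2a to Kat2b counts went from -4.36 ± 0.29 to -3.38 ± 0.27 (SD, n = 5), a difference of 0.98 (exact two-sided permutation p = 0.00794, adjusted p = 0.0222 over 14 pairs). This p is the smallest that 5 against 5 libraries can give, as it is wherever it recurs below. Kat2b counts remained in excess in every starved liver. Hat1, which acetylates newly made histone H4, was at 9.46 ± 0.911 and 9.06 ± 1.55 CPM, without a call (-0.062 ± 0.14, adjusted p = 0.751, edgeR).

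Promoter sequence was looked up in RefSeq's annotation of GRCm38.p6 (the mm10 build), in which 31 of the 35 genes matched. Kat6a, Hdac1, Hdac3 and Hdac10 did not. The 250 bases before the RefSeq start are shown for the opposed pair, Kat2a (chr11:100712468-100712717, minus strand) and Kat2b (chr17:53566721-53566970, plus strand), 5′ to 3′. Capitals mark exact matches, on either strand, to the E-box (CACGTG), the core of the cAMP response element (TGACG), the forkhead motif (TGTTTAC), the GC box (GGGCGG) and the CCAAT box (CCAAT).
Kat2a: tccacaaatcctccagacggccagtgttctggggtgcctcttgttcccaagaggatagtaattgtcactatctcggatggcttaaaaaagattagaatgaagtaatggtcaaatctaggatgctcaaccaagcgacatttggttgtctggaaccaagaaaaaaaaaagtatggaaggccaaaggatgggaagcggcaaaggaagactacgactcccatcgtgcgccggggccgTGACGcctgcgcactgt
Kat2b: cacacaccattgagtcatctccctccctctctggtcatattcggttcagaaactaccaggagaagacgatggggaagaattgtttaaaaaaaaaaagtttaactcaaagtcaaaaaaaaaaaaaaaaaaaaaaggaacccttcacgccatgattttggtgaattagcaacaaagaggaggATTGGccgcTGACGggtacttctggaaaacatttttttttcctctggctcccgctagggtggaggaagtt
Both windows hold 1 TGACG, which begins 17 bases before the RefSeq start of Kat2a and 61 bases before that of Kat2b, and the Kat2b window also holds a CCAAT box on the opposite strand. Neither has a GC box. The coordinates of genes are GENCODE's and span all transcripts, so the starts can differ. For Kat2b the RefSeq start used (1 of 2 in the table) lies 110 bases inside the GENCODE gene, and 55 bases of its window, TGACG included, are exon of a GENCODE processed transcript. Over the 31 members with a window, TGACG was found in 14 (45.2%, against 17.8% of all 32851 windows of this length in the table). The GC box was found in 19 (61.3% against 32.7%), the CCAAT box in 16 (51.6% against 33.8%), the E-box in 3 (9.68% against 6.02%) and the forkhead motif in 1 (3.23% against 3.17%). The member windows were also richer in G and C (median 61.6% against 52.4%), and the table holds more than 1 window for some genes. For some members the RefSeq start lies far inside the GENCODE gene, by 388206 bases for Hdac9 and 42669 for Sirt1. The windows of Ep300, Crebbp and Hat1 are GENCODE exon in all 250 bases. The pooled shares therefore do not describe only sequence before the gene. The matches describe letters and not bound sites.

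Of the 5 MYST acyltransferases, Kat5 and Kat8 rose. Kat5 (TIP60, catalytic subunit of the NuA4-type complex; chromosome 19, 5603014 to 5610237, minus strand) had 10.7, 11.8, 11.4, 12.1 and 10.5 CPM in fed and 12.3, 20.2, 13.9, 21.4 and 16.7 CPM in starved libraries 1 to 5. All starved livers were above all fed livers, with libraries 2 and 4 highest. Its log2 fold change was 0.58 ± 0.15 (adjusted p = 0.0119, edgeR), and 0.35 (adjusted p = 0.0204) without starved libraries 2 and 4. Kat8 (MOF, the main writer of one acetyl mark on histone H4; chromosome 7, 127912516 to 127925837, plus strand) had 19.7, 17.8, 19.1, 15.7 and 17.8 CPM in fed and 21.05, 18.7, 23.4, 29.8 and 25.4 CPM in starved libraries. Here starved library 2 lay inside the fed range and the others above it. The log2 fold change of Kat8 was 0.39 ± 0.13 (adjusted p = 0.0342, edgeR), and this call was lost in 10 of 21 alternatives, among them leaving out fed library 2, 3, 4 or 5 or starved library 3, 4 or 5 (0.32 to 0.41). Exons of Kat5 overlap Rnaseh2c and exons of Kat8 overlap Prss8 on the opposite strand, and the strand setting of the counting is not given in the sources used here.

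Kat6a, Kat6b and Kat7, the catalytic subunits MOZ, MORF and HBO1, were not called. Kat6a was at 22.3 ± 1.86 and 21.2 ± 2.55 CPM and Kat6b at 7.21 ± 1.71 and 7.14 ± 0.401 CPM. Kat7 had 28.6, 32.9, 27.7, 27.4 and 27.9 CPM in fed and 24.3, 56.5, 27.8, 38.4 and 31.9 CPM in starved libraries (0.31 ± 0.20, adjusted p = 0.235, edgeR). Only starved libraries 2 and 4 exceeded the fed range of Kat7, and without them its log2 fold change was -0.031. The log2 ratios of Kat5 to Kat8 and of Kat6a to Kat6b differed between the groups by 0.17 and -0.10 and did not pass (adjusted p = 0.509 and 0.651, exact permutation).

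**Figure D3:**
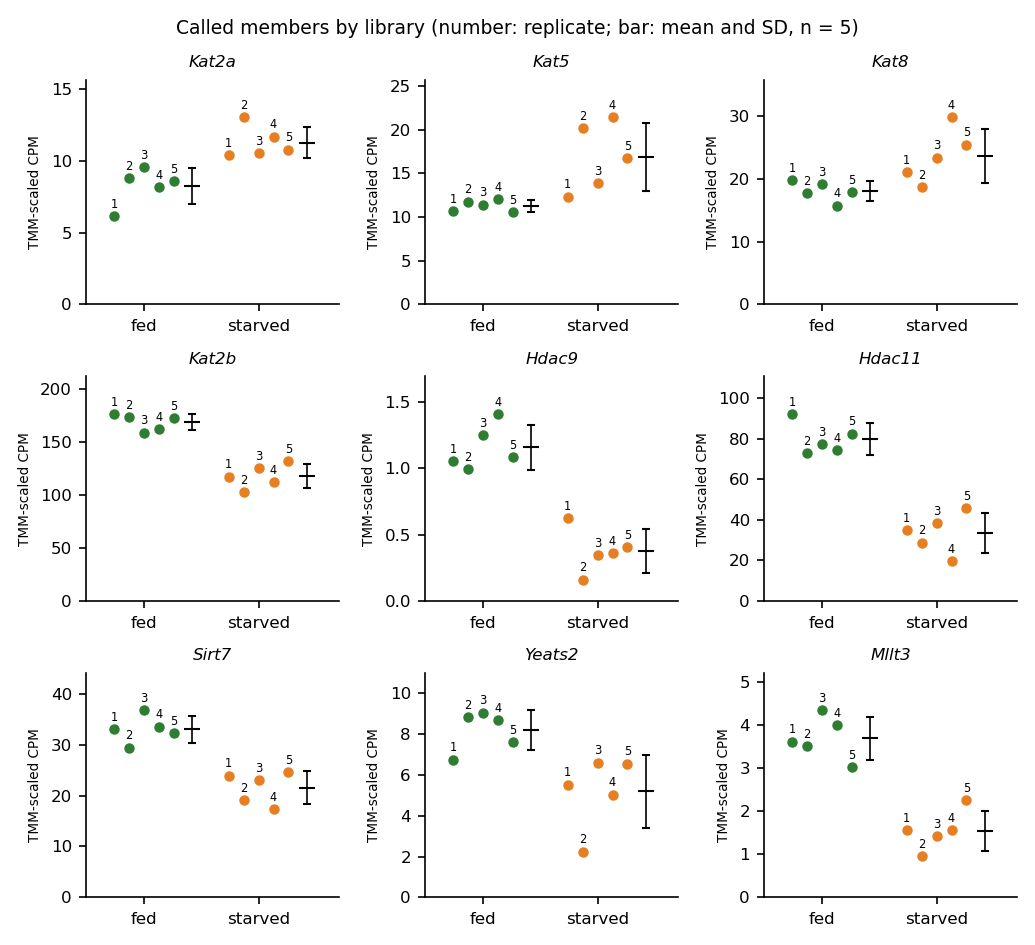
TMM-scaled CPM (y axis from 0) of the 9 called genes in each fed (green) and starved (orange) library, numbered by replicate, with mean and SD. All starved livers lie above the fed livers for Kat2a and Kat5 and below them for Kat2b, Hdac9, Hdac11, Sirt7, Yeats2 and Mllt3, while Kat8 overlaps.

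None of the 4 class I deacetylases, the nuclear catalytic subunits of corepressor complexes, was called. Hdac1 averaged 11.95 ± 0.881 (fed) and 9.88 ± 1.64 (starved) CPM (-0.27 ± 0.14, adjusted p = 0.132, edgeR), Hdac2 averaged 19.2 ± 1.804 and 16.8 ± 4.05 CPM, and Hdac8 averaged 2.55 ± 0.375 and 3.14 ± 0.427 CPM. For Hdac1 and Hdac2, whose products share complexes, the log2 ratio differed by -0.053 and did not pass (exact two-sided permutation p = 0.651, adjusted p = 0.651 over 14 pairs). Hdac3, the catalytic subunit of the NCoR and SMRT complexes (chromosome 18, 37935844 to 37955016, minus strand), had 31.8, 29.1, 28.7, 30.4 and 29.5 CPM in fed and 33.1, 11.3, 27.98, 20.2 and 29.6 CPM in starved libraries (-0.29 ± 0.23, adjusted p = 0.329, edgeR). Starved libraries 2 and 4 lay below every fed liver for Hdac3 while starved libraries 1, 3 and 5 lay within or close to the fed range. Without libraries 2 and 4 its log2 fold change was 0.037 (adjusted p = 0.751).

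Among the class IIa deacetylases, which shuttle between cytoplasm and nucleus and act as scaffolds for corepressors, Hdac9 fell. Hdac9 (chromosome 12, 34047580 to 34917095, minus strand) had 1.05, 0.994, 1.25, 1.41 and 1.09 CPM in fed and 0.623, 0.16, 0.344, 0.361 and 0.406 CPM in starved libraries 1 to 5, which are 27 to 41 and 3 to 16 reads. All starved livers were below all fed livers. The log2 fold change was -1.57 ± 0.28 (adjusted p = 0.00126, edgeR), the strongest change among the 35 genes, at the lowest level of them all. It was -1.28 (adjusted p = 0.00317) without starved libraries 2 and 4. The Kupffer cell markers named above moved the same way as Hdac9, and their part in this result was not tested. Hdac7 was at 2.48 ± 0.228 and 2.29 ± 0.256 CPM, without a call (-0.11 ± 0.14, adjusted p = 0.563, edgeR). The log2 ratio of Hdac7 to Hdac9 rose from 1.09 ± 0.25 to 2.62 ± 0.71 (exact two-sided permutation p = 0.00794, adjusted p = 0.0222 over 14 pairs).

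Hdac4 and Hdac5, the other 2 class IIa genes, differed among starved livers more than between the groups. Hdac4 (chromosome 1, 91928779 to 92195699, minus strand) had 5.34, 6.13, 6.33, 6.78 and 6.44 CPM in fed and 4.28, 12.3, 3.98, 7.55 and 4.69 CPM in starved libraries 1 to 5. Hdac5 (chromosome 11, 102194432 to 102230166, minus strand) had 27.7, 32.6, 29.4, 31.4 and 25.7 CPM in fed and 19.7, 61.9, 22.2, 38.4 and 25.2 CPM in starved libraries. Starved libraries 2 and 4 were above every fed liver for both genes, and starved libraries 1, 3 and 5 were below every fed liver for both. With all libraries neither was called (Hdac4 0.081 ± 0.28, adjusted p = 0.841, and Hdac5 0.19 ± 0.27, adjusted p = 0.61, edgeR). Without starved libraries 2 and 4 both were called lower, at -0.50 (adjusted p = 0.00724, edgeR) and -0.38 (adjusted p = 0.0118), so the direction turned. Their ratio varied little, with log2 values for Hdac4 over Hdac5 of -2.24 ± 0.16 in fed and -2.35 ± 0.10 in starved livers (exact two-sided permutation p = 0.262, adjusted p = 0.367 over 14 pairs). The SD of the log2 level over starved livers was 0.68 for Hdac4 and 0.67 for Hdac5, against 0.10 for their ratio. The windows before the RefSeq starts of Hdac4 (chr1:92180342-92180591, minus strand) and Hdac5 (chr11:102230173-102230422, minus strand) are shown because the levels of these genes ran parallel from liver to liver, with capitals as above.
Hdac4: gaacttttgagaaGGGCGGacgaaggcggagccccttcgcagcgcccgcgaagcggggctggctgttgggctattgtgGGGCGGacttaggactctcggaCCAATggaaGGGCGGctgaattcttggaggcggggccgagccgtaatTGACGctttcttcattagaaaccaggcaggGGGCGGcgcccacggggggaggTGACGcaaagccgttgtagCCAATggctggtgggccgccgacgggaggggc
Hdac5: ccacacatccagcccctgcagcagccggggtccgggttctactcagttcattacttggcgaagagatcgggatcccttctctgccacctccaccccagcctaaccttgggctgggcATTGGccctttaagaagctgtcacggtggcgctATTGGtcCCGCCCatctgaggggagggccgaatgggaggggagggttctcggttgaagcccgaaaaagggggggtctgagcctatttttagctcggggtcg
The RefSeq start of Hdac4 lies 15358 bases inside the GENCODE gene, which has a longer transcript, and no base of the window is in a GENCODE exon of Hdac4. The Hdac4 window holds 4 GC boxes, 2 TGACG and 2 CCAAT boxes. The Hdac5 window holds 1 GC box and 2 CCAAT boxes, both in the opposite orientation, and no TGACG.

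**Figure D4:**
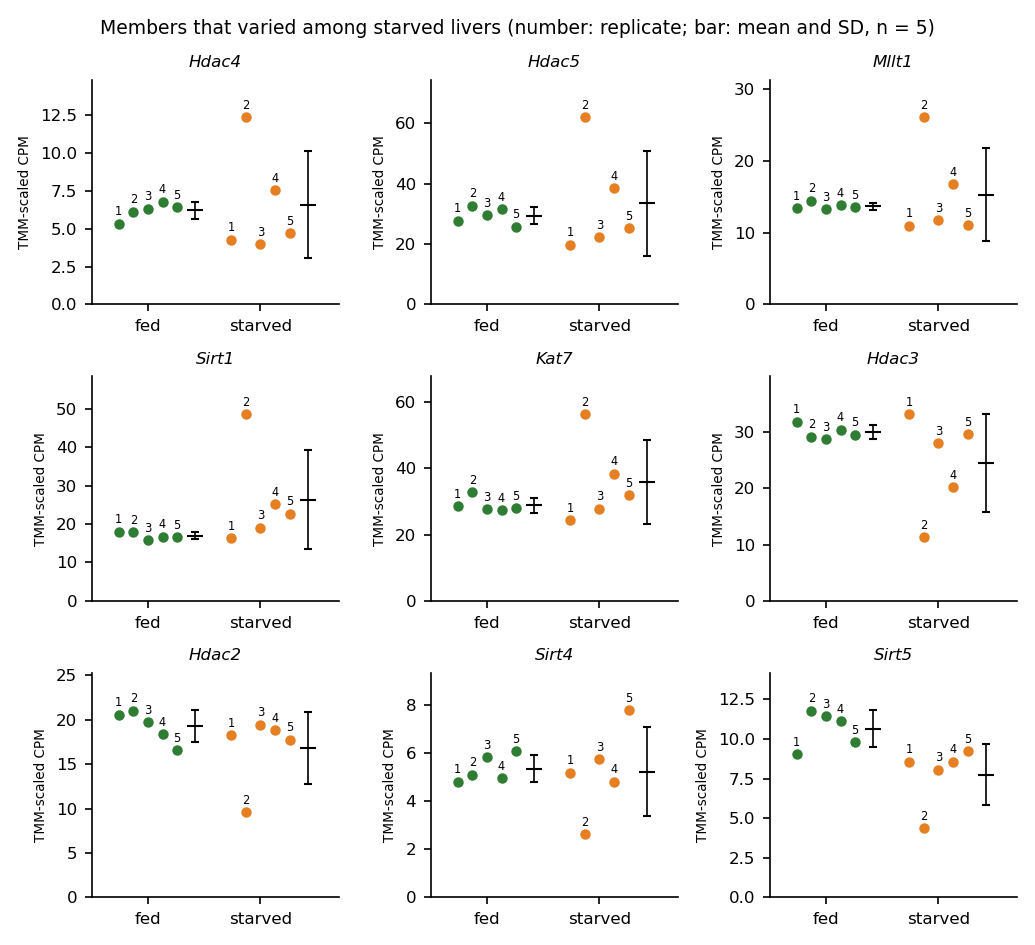
TMM-scaled CPM (y axis from 0) of 9 genes that varied among starved livers, by library, numbered by replicate, with mean and SD. Starved libraries 2 and 4 are above the fed range for Hdac4, Hdac5, Mllt1, Sirt1 and Kat7 and below it for Hdac3, while Hdac2, Sirt4 and Sirt5 are low in starved library 2.

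The class IIb genes Hdac6, a tubulin deacetylase, and Hdac10, a polyamine deacetylase, were not called. Hdac6 averaged 14.6 ± 2.03 (fed) and 12.98 ± 1.57 (starved) CPM (-0.17 ± 0.13, adjusted p = 0.299, edgeR), and was called lower with library totals alone (-0.34, adjusted p = 0.0398). Hdac10 was at 9.23 ± 0.888 and 10.3 ± 1.46 CPM (0.16 ± 0.13, adjusted p = 0.341), and was called higher without starved libraries 2 and 4 (0.30, adjusted p = 0.0409, edgeR). Hdac11, the class IV enzyme, which removes long fatty acyl groups from lysines, fell. Hdac11 (chromosome 6, 91156665 to 91174692, plus strand) had 92.2, 72.8, 77.1, 74.3 and 82.5 CPM in fed and 34.98, 28.8, 38.2, 19.6 and 45.7 CPM in starved libraries 1 to 5. All starved livers were below all fed livers, with library 4 lowest. The log2 fold change was -1.26 ± 0.19 (adjusted p = 0.000557, edgeR) and -0.99 without starved libraries 2 and 4, and the call held in all 21 alternatives.

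Of the 7 sirtuins, Sirt7 fell and the other 6 were not called. Sirt7, a nucleolar and chromatin-bound deacylase (chromosome 11, 120618372 to 120625240, minus strand), had 33.1, 29.4, 36.7, 33.5 and 32.2 CPM in fed and 23.9, 19.03, 23.01, 17.3 and 24.6 CPM in starved libraries 1 to 5. The groups did not overlap, the log2 fold change was -0.61 ± 0.12 (adjusted p = 0.00232, edgeR), and the call held in all 21 alternatives. Some annotated exons of Sirt7 overlap Mafg on the same strand, so reads there may have been left uncounted as ambiguous. Sirt6, another chromatin-bound sirtuin, was at 1.30 ± 0.242 and 1.46 ± 0.278 CPM, without a call (0.17 ± 0.20, adjusted p = 0.531, edgeR). The log2 ratio of Sirt6 to Sirt7 went from -4.66 ± 0.23 to -3.87 ± 0.30 (exact two-sided permutation p = 0.00794, adjusted p = 0.0222 over 14 pairs).

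Sirt1, the nuclear deacetylase known for its fasting targets FOXO1 and PGC-1α, had 18.02, 17.9, 15.8, 16.7 and 16.6 CPM in fed and 16.3, 48.6, 19.1, 25.1 and 22.7 CPM in starved libraries 1 to 5. Starved libraries 2 to 5 were above all fed livers, with library 2 far above the others, and library 1 was inside the fed range. Its log2 fold change of 0.63 ± 0.25 missed the threshold (adjusted p = 0.0639, edgeR's quasi-likelihood test). Both DESeq2's Wald test (adjusted p = 0.0365) and the likelihood ratio test in edgeR (adjusted p = 0.0403) called it, as did the fit without starved library 1 (0.77, adjusted p = 0.025) or 3 (0.73, adjusted p = 0.0429), and the log2 fold change without libraries 2 and 4 was 0.20 (adjusted p = 0.149). Sirt2, the mainly cytosolic tubulin deacetylase, was steady from liver to liver at 23.6 ± 1.04 and 24.9 ± 1.64 CPM (0.079 ± 0.088, adjusted p = 0.5, edgeR). The log2 ratio of Sirt1 to Sirt2 differed by 0.44 and did not pass (exact two-sided permutation p = 0.0556, adjusted p = 0.111 over 14 pairs), though it passed without starved library 1 (0.56, adjusted p = 0.0185, exact permutation).

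The mitochondrial sirtuins, Sirt3 (deacetylase), Sirt4 and Sirt5 (desuccinylase), were not called. Sirt3, the most abundant sirtuin per kb, had 108, 77.1, 86.00, 83.8 and 104 CPM in fed and 94.1, 74.9, 81.8, 86.03 and 90.4 CPM in starved libraries (-0.10 ± 0.12, adjusted p = 0.507, edgeR), and the ranges overlapped. Its exons overlap Psmd13 on the opposite strand. Sirt4 was at 5.35 ± 0.559 and 5.22 ± 1.85 CPM, from 2.62 in starved library 2 to 7.77 in starved library 5. Sirt5 had 9.06, 11.8, 11.4, 11.1 and 9.78 CPM in fed and 8.56, 4.38, 8.06, 8.56 and 9.21 CPM in starved libraries, with library 2 lowest (-0.45 ± 0.18, adjusted p = 0.0694, edgeR). A lower level of Sirt5 was called without starved library 2 (-0.30, adjusted p = 0.0419), under scaling by library totals (-0.59, adjusted p = 0.0352) and in DESeq2's Wald test (adjusted p = 0.0483). The ratio of Sirt3 to Sirt5 did not pass (difference 0.40, exact two-sided permutation p = 0.111, adjusted p = 0.173 over 14 pairs).

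Of the 4 YEATS readers, Mllt3 and Yeats2 fell and Mllt1 and Yeats4 were not called. Mllt3 (AF9) and Mllt1 (ENL) encode paralogous subunits that tie acylated histones to the super elongation complex and to DOT1L. Mllt3 (chromosome 4, 87769925 to 88033364, minus strand) had 3.62, 3.51, 4.34, 3.99 and 3.02 CPM in fed and 1.56, 0.962, 1.43, 1.55 and 2.26 CPM in starved libraries 1 to 5. All starved livers were below all fed livers, and Mllt3 fell (log2 fold change -1.25 ± 0.21, adjusted p = 0.000858, edgeR), a call that held in all 21 alternatives. Mllt1 (chromosome 17, 56892611 to 56935415, minus strand) had 13.4, 14.4, 13.3, 13.8 and 13.5 CPM in fed and 10.97, 26.1, 11.7, 16.7 and 11.01 CPM in starved libraries. As for Hdac4 and Hdac5, starved libraries 2 and 4 were above every fed liver and libraries 1, 3 and 5 below. Mllt1 was not called with all libraries (0.16 ± 0.22, adjusted p = 0.597, edgeR) and was called lower without libraries 2 and 4 (-0.27, adjusted p = 0.0283). The log2 ratio of Mllt1 to Mllt3 went from 1.89 ± 0.21 to 3.24 ± 0.92 (exact two-sided permutation p = 0.00794, adjusted p = 0.0222 over 14 pairs), and the difference was 0.80 in place of 1.35 without libraries 2 and 4. The window before 1 of the 2 RefSeq starts of Mllt3 (chr4:88033408-88033657, minus strand) is shown as that of the reader with the largest fall, with capitals as above.
Mllt3: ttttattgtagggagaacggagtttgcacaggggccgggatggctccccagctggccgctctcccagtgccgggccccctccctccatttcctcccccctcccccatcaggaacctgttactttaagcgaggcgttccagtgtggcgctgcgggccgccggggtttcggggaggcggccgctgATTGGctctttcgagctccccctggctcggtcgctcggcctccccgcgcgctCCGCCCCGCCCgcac
It holds a CCAAT box and 2 GC boxes, each read on the opposite strand, and no TGACG. The GC boxes overlap in the run of capitals near the end.

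Yeats2, the crotonyl-lysine reader of the ATAC complex (chromosome 16, 20141063 to 20232573, plus strand), had 6.74, 8.81, 9.05, 8.68 and 7.61 CPM in fed and 5.52, 2.24, 6.59, 5.02 and 6.55 CPM in starved libraries 1 to 5. The groups did not overlap, though the lowest fed and the highest starved livers were close. Its fall (-0.66 ± 0.24, adjusted p = 0.0471, edgeR) was near the threshold and lost its call in 11 of 21 alternatives, among them each fed library left out in turn and starved library 1 or 4 left out (-0.72 to -0.62). The log2 fold change without starved libraries 2 and 4 was -0.38 (adjusted p = 0.0333). Yeats4 (GAS41), a subunit of the TIP60 and SRCAP complexes, was at 16.5 ± 2.28 and 19.6 ± 1.66 CPM, without a call (0.24 ± 0.12, adjusted p = 0.118, edgeR). It was called higher without fed library 1 (0.32, adjusted p = 0.0451). The log2 ratio of Yeats2 to Yeats4 fell by 0.99 (exact two-sided permutation p = 0.0159, adjusted p = 0.037 over 14 pairs), and by 0.58 without starved libraries 2 and 4 (exact permutation p = 0.0714, adjusted p = 0.143). This ratio did not pass when fed library 2, 3, 4 or 5 or starved library 2, 4 or 5 was left out (-1.08 to -0.68).

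The bromodomain genes Brd2 and Brd3, whose BET proteins bind acetylated histones at active genes, were not called. Brd2 had 56.6, 70.9, 68.7, 56.8 and 60.9 CPM in fed and 73.7, 93.7, 67.4, 69.99 and 77.9 CPM in starved libraries (0.29 ± 0.12, adjusted p = 0.07, edgeR). Brd3 had 13.1, 16.6, 13.1, 15.4 and 17.1 CPM in fed and 12.3, 6.84, 11.3, 10.9 and 14.8 CPM in starved libraries (-0.42 ± 0.18, adjusted p = 0.0845, edgeR). The groups overlapped for each gene alone, but the log2 ratio of Brd2 to Brd3 did not overlap, at 2.06 ± 0.22 in fed and 2.80 ± 0.55 in starved livers (exact two-sided permutation p = 0.00794, adjusted p = 0.0222 over 14 pairs). The difference without starved libraries 2 and 4 was 0.45 in place of 0.73, and it did not pass (exact permutation p = 0.0536, adjusted p = 0.125). Exons of Brd2 overlap H2-DMa on the opposite strand. Brd3 was called lower without starved library 5 (-0.53, adjusted p = 0.0341) and with library totals alone (-0.57, adjusted p = 0.0397), and Brd2 higher by DESeq2's Wald test (adjusted p = 0.0413). Dpf2, the double PHD finger subunit of the BAF remodelling complex, was at 20.5 ± 2.81 and 24.4 ± 2.36 CPM (0.25 ± 0.12, adjusted p = 0.106, edgeR).

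Across the 14 pairs of related members compared within libraries, the ratio differed between starved and fed livers in 6: Kat2a to Kat2b, Hdac7 to Hdac9, Sirt6 to Sirt7, Brd2 to Brd3, Mllt1 to Mllt3 and Yeats2 to Yeats4. In the other 8 the test did not pass, and of these the smallest adjusted p values were those of Sirt1 to Sirt2 (0.111) and Hdac6 to Hdac10 (0.139, difference -0.33, exact permutation). Without starved libraries 2 and 4 all 6 ratios had the same sign and none passed after adjustment. The differences were 0.81 for Kat2a to Kat2b, 1.12 for Hdac7 to Hdac9, 0.71 for Sirt6 to Sirt7 and 0.80 for Mllt1 to Mllt3, each at the smallest p that 5 against 3 libraries can give (exact permutation p = 0.0179, adjusted p = 0.0625). Brd2 to Brd3 and Yeats2 to Yeats4 did not reach that p (0.0536 and 0.0714, exact permutation). With only 4 pairs at the smallest p, none of these 4 could pass the adjustment over 14 pairs. That they did not pass therefore says nothing about their stability.

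**Figure D5:**
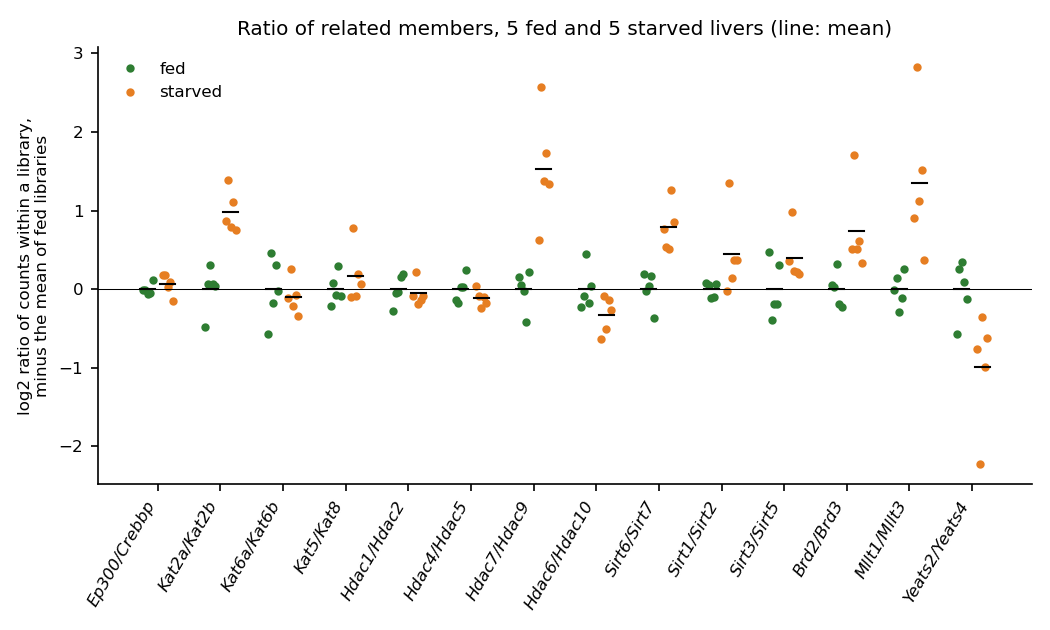
Log2 ratio of the counts of 2 related genes in each library, minus the mean of the fed libraries (y axis), for 14 pairs in 5 fed (green) and 5 starved (orange) livers, with lines at the means. Starved livers are shifted by 0.98 for Kat2a to Kat2b and by 1.35 for Mllt1 to Mllt3, while the 2 groups share a range for Hdac4 to Hdac5.

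Among the 35 genes, starved livers varied more than fed livers in 28 (80%, against 82.1% of all tested genes, by the SD of the log2 level). Starved libraries 2 and 4 were both above the range of the other starved livers in 12 members (34.3%, against 24.7% of all tested genes) and both below it in 8 (22.9% against 25.5%). The 12 were Ep300, Kat2a, Kat5, Kat6a, Kat7, Hdac4, Hdac5, Hdac7, Sirt1, Sirt2, Mllt1 and Dpf2. The 8 were Kat2b, Hdac3, Hdac10, Hdac11, Sirt4, Sirt7, Brd3 and Yeats2. Summed neutrophil markers were 19.9 and 23.4 CPM in starved libraries 2 and 4, within a starved range of 3.07 to 23.4. Summed cholangiocyte markers were 16.3 and 15.1 CPM, within 15.1 to 40.7. Erythroid markers (10.3 and 8.38, within 8.38 to 26.1) were low in both libraries too. So were T and NK cell (0.428 and 0.65, within 0.428 to 2.07) and B cell markers (0.641 and 1.23, within 0.641 to 3.59). Library 2 had the highest starved sums of hepatocyte, endothelial and stellate cell markers, and library 4 the lowest of Kupffer cell markers. Read assignment differed in these libraries too. Reads aligned to several places made up 38.6% and 40.7% in starved libraries 2 and 4, against 43.4% to 48.4% in the other starved libraries. Ambiguous reads made up 0.79% and 0.694%, against 0.504% to 0.575%. The TMM factor was 0.85 in library 2 but 0.987 in library 4, against 0.949 to 0.983. The part of these markers and of read assignment in the differences was not tested.

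The partners of these enzymes were mixed in direction. Of 171 tested genes in 9 lists of complex subunits, kinases and cofactor enzymes, 26 rose (15.2%, against 18.6% of all tested genes) and 20 fell (11.7% against 20%), with a median log2 fold change of 0.12 against 0.0035. The shares of single lists rest on 12 to 31 genes each and are read against the same background. The share that rose was 25% for the super elongation complex (3 of 12 genes) and 35.3% for acyl-CoA and ketone body sources (6 of 17). It was close to the background for the TIP60 complex (21.4%, 3 of 14, counted without Trrap, which fell). The share that fell was 35.7% for NAD genes (5 of 14). It was close to the background for acyl-CoA and ketone body sources (23.5%, 4 of 17). No test of these differences was made. Of 31 subunits of the HDAC1, HDAC2 and HDAC3 corepressor complexes, 4 rose and 3 fell (median 0.10). The paralogous NuRD remodellers were opposed, with Chd4 at 0.61 ± 0.15 and Chd3 at -0.90 ± 0.11 (adjusted p = 0.00813 and 0.000131, edgeR). Brms1, of the SIN3 complex, also rose (0.63), as did Dnttip1 (0.52, 0.23 and not called without starved libraries 2 and 4), while Rcor3 of the CoREST family (-0.60) and Tbl1x of the NCoR complex (-0.46) fell. Of 23 SAGA and ATAC subunits, 2 rose (Taf9, 0.91 ± 0.20, and Mbip, 1.16) and 2 fell (Taf6l, -0.69, and Trrap, -0.45), with a median of 0.028. When starved libraries 2 and 4 were left out, Mbip (0.34) and Taf6l (-0.41) were not called.

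Of 14 genes listed for the TIP60 complex, without Trrap, which fell and is counted under SAGA and ATAC, 3 rose and 0 fell (median 0.20). They were Morf4l1, a chromodomain subunit (0.73 ± 0.12, adjusted p = 0.000778, edgeR), Epc2 (0.84, and 0.28 without starved libraries 2 and 4, a call lost in 10 of 21 alternatives) and Ruvbl2, an ATPase (0.43). In the MOZ, HBO1, MSL and NSL complexes 3 of 19 rose and 1 fell (median 0.25). Those that rose, the scaffold Brpf3 (0.77), Jade2 (listed as Phf15, 0.74) and Kansl2 (0.37), lost their calls without starved libraries 2 and 4 (0.23, 0.32 and 0.22), and Msl1, a scaffold of the MOF complex, fell (-0.38). Of 26 further reader genes, 2 rose and 3 fell (median 0.081). Bptf (0.60, and 0.34 without starved libraries 2 and 4) and Brwd1 (0.48) rose, and Atad2 (-0.93 ± 0.15, adjusted p = 0.000951, edgeR), the remodelling ATPase Smarca2 (-0.77 ± 0.11, adjusted p = 0.000419) and Baz1b (-0.49, a call lost in 7 of 21 alternatives) fell.

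In the super elongation complex and its partner DOT1L, which ENL and AF9 contact, 3 of 12 genes rose and 1 fell (median 0.37). Ell2, an elongation factor, rose from 109.9 ± 15.1 to 206 ± 33.8 CPM (0.91 ± 0.14, adjusted p = 0.000555, edgeR) and was the one of these with a call in all 21 alternatives. Dot1l, the histone methyltransferase, rose by 1.30 ± 0.41, and by 0.41 without starved libraries 2 and 4, and the call of the scaffold Aff4 (0.59) was lost without them (0.16). Ell3 fell (-1.83). The calls of Dot1l and Aff4 were lost in 7 and 12 of 21 alternatives. Of 15 kinases and MEF2 partners of class IIa deacetylases, 2 rose and 1 fell (median 0.17). Sik3, a kinase that holds class IIa deacetylases in the cytoplasm, went from 26.4 ± 1.84 to 54.4 ± 25.5 CPM (1.05 ± 0.25, adjusted p = 0.00708, and 0.55 without starved libraries 2 and 4, edgeR). Camk2d rose as well (0.50) and Camk4, a calcium-dependent kinase, fell from 2.74 ± 0.452 to 0.379 ± 0.162 CPM.

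Genes of NAD supply and use, on which sirtuins depend, gave 5 falls and 1 rise among 14 (median -0.26). Nmrk1, the nicotinamide riboside kinase, fell from 46.5 ± 17.9 to 11.9 ± 5.52 CPM (-1.96 ± 0.36, adjusted p = 0.00157, edgeR), and Qprt, of NAD synthesis from tryptophan (-0.68), and Parp1, which consumes NAD (-0.59), fell too. Nnmt, which methylates nicotinamide, rose from 170.1 ± 44.2 to 609.7 ± 47.1 CPM (1.84 ± 0.17, adjusted p = 3.54e-05, edgeR). Of 17 genes that supply acyl-CoA or ketone bodies, 6 rose and 4 fell (median 0.26). The enzymes that make acetyl-CoA outside mitochondria fell, Acly from citrate (-2.22 ± 0.18, 369 ± 98.3 to 79.2 ± 11.8 CPM) and Acss2 from acetate (-2.10 ± 0.24, 304 ± 108 to 71.00 ± 14.4 CPM). Crat, the carnitine acetyltransferase (1.46 ± 0.19), Acss3 (0.67) and the carnitine carrier Slc25a20 (0.64) rose, while Bdh1, which makes β-hydroxybutyrate, fell (-1.61 ± 0.47, and -1.04 without starved libraries 2 and 4).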

How the data were processed

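Liver total RNA was sequenced from libraries that keep strand (TruSeq, per the labels' protocols). The authors deposited whole-number read counts per gene symbol, 1 file per library. CASAVA 1.8.2, TopHat2 2.0.0, Bowtie2 2.0.0, HTSeq, edgeR 3.6.4 and the build mm10 are named per the submitters' processing notes. Which annotation and strand setting were used is not given in the sources used here. Tally rows that name no gene (63.3% to 68.2% of reads in fed and 58.2% to 68.8% in starved libraries, mostly reads aligned to several places) stayed out of totals and tests.

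Counts were analysed in R 4.3.3 with edgeR 4.0.16 (filterByExpr, TMM scaling, quasi-likelihood test of starved against fed, 5 libraries each, Benjamini-Hochberg adjustment over 12796 genes), after a check on simulated data. Log2 ratios of related genes (0.5 added to each count) were compared by an exact two-sided permutation test over samples, adjusted over 14 pairs. Levels are TMM-scaled CPM, and lengths and coordinates are those of GENCODE's GRCm38 annotation. The labels name 5 pairs of mice without saying that equal numbers mark a pair, so the main tests treated the mice as unpaired. Their p-values set the difference between groups against the spread among livers of a group, and any pairing is ignored. No library pair of a group agreed within sampling noise. All 35 members are named, and from each partner list up to 3 called genes per direction of the largest change, if the higher group averaged 1 CPM or more. The members and lists were chosen with earlier results of these data known. Alternatives were 3 other scalings, 3 other tests (DESeq2 1.42.0, edgeR's likelihood ratio test, limma 3.58.1 with voom), 2 filters, a replicate block, a threshold of 0.01 and each library left out. Leaving out starved libraries 2 and 4 together was chosen after seeing the data.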

Additional observations from a re-analysis of the deposited data

Results flagged for a closer look

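Within groups of 5 libraries, 6 of 70 sets of values (35 genes in 2 groups) had 1 library far from the other 4, by a gap of more than 0.71 of the range, where chance gives about 1 in 20. In starved library 2, Hdac1 was low at 6.95 CPM, Hdac2 was low at 9.62 CPM, Sirt5 was low at 4.38 CPM and Sirt1 was high at 48.6 CPM. In fed livers, Crebbp was low in library 1 at 24.3 CPM and Kat7 was high in library 2 at 32.9 CPM. Of the 6, 4 fall on the 1 library with the lowest correlation with its group.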

How the results depend on the processing

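Of the 9 called members, Kat2b, Hdac9, Hdac11, Sirt7 and Mllt3 kept their calls in all 21 alternatives, and Kat5 in all but the threshold of 0.01 (adjusted p = 0.0119, edgeR). The number of members that rose was 3, but 1 with library totals alone, 5 by DESeq2's Wald test and 0 at an adjusted p under 0.01, where 5 fell, and 2 to 4 with each library left out. The number that fell was 6, but 9 with library totals alone and 9 without starved libraries 2 and 4, and 5 to 7 with each library left out. Of partner genes 26 rose, but 13 with library totals alone, 14 at a threshold of 0.01 and 16 to 33 with each library left out (16 without fed library 4 or 5, 17 without fed library 2). Of partner genes 20 fell, but 32 with library totals alone and 13 at 0.01. Among all genes 2379 rose, but 1490 with library totals alone (29.9% of calls higher in place of 48.2%) and 1272 at 0.01, and 2555 fell, but 1526 at 0.01. Without starved libraries 2 and 4 the direction turned for Hdac4 (-0.50), Hdac5 (-0.38) and Mllt1 (-0.27), and for Sik1, a kinase of class IIa deacetylases named here after its values were seen (0.80 to -0.93). Starved library 2 had 78.99 CPM of Sik1 and starved libraries 1 and 3 had 5.21 and 5.07. The cause of these changes was not tested. The median member's level per kb in starved liver was 2.98 and 2.83 CPM per kb with library totals alone. The count of 6 related pairs whose ratio differed was 0 without starved libraries 2 and 4. There 4 of the 6 were at the smallest p possible (0.0179, exact permutation), which could not pass the adjustment with only 4 pairs at it. Brd2 to Brd3 and Yeats2 to Yeats4 were not at that p. The count was also 0 with a replicate block, where the smallest p possible is 0.0625, so that the block says nothing about stability. The correlation of same-numbered fed and starved libraries after removing group means was 0.198, 0.0666, -0.0121, -0.0453 and -0.0291 for numbers 1 to 5. For differently numbered libraries it ran from -0.128 to 0.175. These values cannot settle whether equal numbers mark a pair, since paired mice need not correlate. With a replicate block in edgeR Kat8 (0.38, adjusted p = 0.0817) and Yeats2 (-0.71, adjusted p = 0.0628) were not called, so that 2 members rose and 5 fell, and 18 partner genes rose and 21 fell. Hdac9 rests on 3 to 41 reads per library, which limits its precision.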
